A study of Mus musculus with 6 samples.

Results

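miR-210 is a microRNA (miRNA), a short RNA that represses mRNAs by pairing with them, and both arms of its hairpin, mmu-miR-210-3p and mmu-miR-210-5p, are described here as 2 of the 2009 names in the deposited table. They were chosen by name alone. Of the pair, mmu-miR-210-3p is 1 of 409 names that passed a filter on low levels, and mmu-miR-210-5p did not pass it. The series compared 3 sham hearts with 3 hearts after ischemia and reperfusion (I/R), all from male mice, whose strain, age and genotype the labels do not give. All 6 hearts were isolated and perfused on a Langendorff system, which feeds the coronary vessels through the aorta. Sham hearts were not stopped, and I/R hearts were arrested for 30 min with Tomas cardioplegia, a solution that halts contraction, and reperfused for 1 h. Both groups therefore share the excision and the artificial perfusion, and the labels name no heart that was left in the animal. Each library is taken as 1 heart, a biological replicate per its title.

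In most cells miR-210 is transcribed when the hypoxia-inducible factors (HIF) are stabilised by low oxygen, and it is widely used as a readout of that response. Its known targets include Iscu, a scaffold for iron-sulphur clusters of the respiratory chain, Gpd1l, an enzyme-like protein linked to HIF stability, and Efna3, an ephrin ligand that restrains new vessel growth. The 3p arm is the guide strand that is loaded into Argonaute, and the 5p arm is the passenger strand that is mostly degraded.

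The mature arms and the hairpin are shown because the results turn on the balance of the arms and on whether reads could belong to another miRNA. In the mature sequences the capitals mark the seed, bases 2 to 8, which chooses targets. In the hairpin they mark the 5p arm and then the 3p arm. Sequences are from RefSeq (GRCm38.p6), read 5′ to 3′.
miR-210-3p: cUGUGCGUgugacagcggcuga
miR-210-5p: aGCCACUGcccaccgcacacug
Mir210 hairpin: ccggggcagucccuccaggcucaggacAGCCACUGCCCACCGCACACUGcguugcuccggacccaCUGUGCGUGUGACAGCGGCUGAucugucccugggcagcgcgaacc

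The hairpin of 110 nt lies on the minus strand of chromosome 7 at 141221384 to 141221493 (GRCm38), with the 3p arm at 141221407 to 141221428 and the 5p arm at 141221445 to 141221466. GENCODE M21 places no other gene over it. The nearest genes are Rassf7, which ends 2725 bp away at lower coordinates, and Phrf1, which starts 7290 bp away at higher coordinates. Each arm has 22 nt and comes from 1 locus in the RefSeq table. Among 1679 mature mouse names in that table, 0 others share the seed of either arm, and 0 others share even bases 2 to 7. The longest run that any other of these sequences shares with miR-210-3p is 9 bases, in miR-7672-5p. The deposited table lists 1978 mouse names and 31 predicted ones, and names without a RefSeq sequence were not compared. The mRNA sequence that pairs with the 3p seed is ACGCACA.

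The hairpin is rich in G and C. G and C make up 63.6% of miR-210-3p and 68.2% of miR-210-5p, against a median of 47.6% over the 343 kept miRNAs that have a RefSeq sequence (83.9% of 409). At or above the value of miR-210-3p stood 25 of them, 7.29%. The 3p seed holds the dinucleotide CG, as do the seeds of 58 of the 343 (16.9%), and in that set miR-210-3p was number 19 by level. In the structure of lowest energy predicted by RNAfold (-48.0 kcal/mol), 16 of the 22 bases of the 3p arm paired with the 5p arm, among them 6 of the 7 seed bases, and 16 nt separated the arms.

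Levels are given in counts per 1000000 reads (RPM), from 7874103 to 9197869 reads on listed names per library. Heart tissue was checked by its muscle miRNAs: miR-208a-3p, miR-499-5p, miR-1a-3p and miR-133a-3p were above 0 in every library, and their sum ran from 385458 to 389856 RPM in the sham group and from 357828 to 383230 RPM after I/R. These ranges do not overlap, and nearly all of the sum was miR-1a-3p, which had 378281 to 382877 RPM in the sham group and 351573 to 375821 RPM after I/R. The other members overlapped between the groups, among them miR-499-5p with 5217 to 5913 and 5310 to 6248 RPM. Because values are shares of a library, the part of the lower miR-1a-3p share in the results for miR-210 was not tested beyond the scalings given with them. Summed markers of other cells overlapped between sham and I/R hearts for red blood cells (3 miRNAs, 1292 to 1603 and 1432 to 1793 RPM), leukocytes (3 miRNAs, 67.8 to 91.5 and 75.9 to 78.5 RPM), endothelium (2 miRNAs, 24893 to 27478 and 25829 to 31830 RPM) and smooth muscle (2 miRNAs, 35566 to 46739 and 41127 to 49773 RPM). Of the red blood cell sum nearly all was miR-486a-5p, so its overlap says little about the other members. The erythroid miR-451a ranged from 3.09 to 6.09 RPM in the sham group. It had 4.77 RPM in I/R replicate 2 and at most 2.07 RPM in I/R replicates 1 and 3. Its groups overlapped, with a log2 fold change of -0.68 (SE 0.34, limma adjusted p = 0.628). miR-144-3p stayed below it in every library, with 0.247 to 0.761 RPM in the sham group and 0.122 to 0.489 RPM after I/R. Whether red blood cell content differed was not tested further. Most of the leukocyte sum was miR-150-5p, and nearly all of the endothelial and smooth muscle sums was miR-126a-3p and miR-143-3p. miR-145a-5p had 32.6 to 78.0 RPM in the sham group and 37.8 to 41.8 RPM after I/R. The liver miRNA miR-122-5p ranged from 3.05 to 3.58 RPM in the sham group and from 3.67 to 4.32 RPM after I/R, without overlap. Whether the small liver-type signal bears on miR-210 was not tested.

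miR-210-3p, the guide strand, was a miRNA of middle abundance in these hearts. Sham replicates 1 to 3 held 82.7, 93.4 and 90.7 RPM of it, from 761, 826 and 735 reads. In I/R replicates 1 to 3 it had 85.2, 92.8 and 80.0 RPM, from 698, 759 and 630 reads. The groups overlapped: the highest library was sham replicate 2, the next was I/R replicate 2, and the lowest was I/R replicate 3. In the order of levels within a library it stood at place 116 to 120 in sham and 118 to 134 in I/R hearts, among 799 to 867 names above 0. In a bulk heart, fewer cells that make a miRNA and less of it per cell cannot be told apart.

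**Figure D1:**
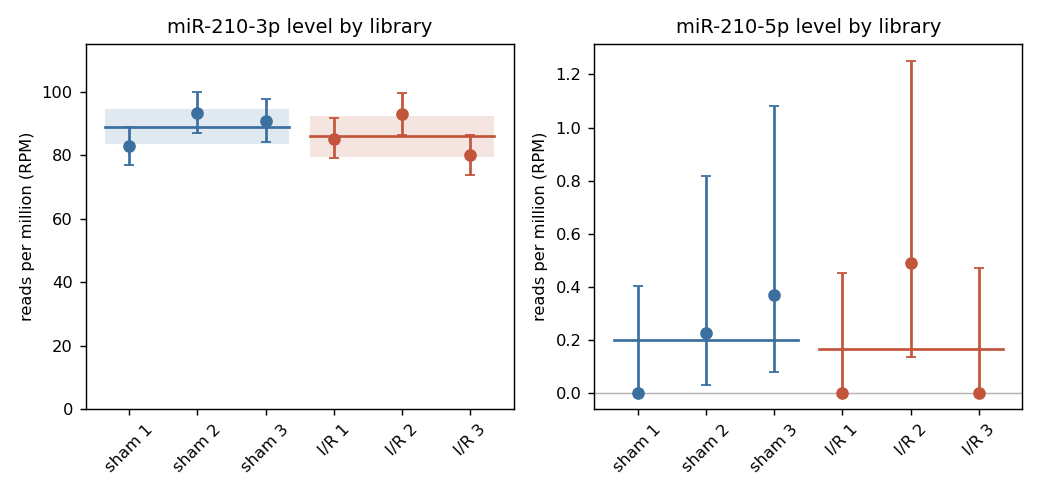
Level of miR-210-3p (left) and miR-210-5p (right) in RPM on the vertical axis, for each library on the horizontal axis, with exact 95% Poisson intervals for counting error; horizontal lines are group means (n = 3) and, for miR-210-3p, bands are 1 SD. The 3 I/R values of miR-210-3p, 80.0 to 92.8 RPM, lie over the range of the 3 sham values, 82.7 to 93.4 RPM, and miR-210-5p stays below 0.5 RPM in every library.

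The comparison asks whether the hypoxia miRNA differs after arrest and reperfusion, and for miR-210-3p no difference was detected at this number of hearts. The sham mean was 88.9 ± 5.53 RPM and the I/R mean 86.0 ± 6.44 RPM (SD, n = 3 each). The log2 fold change of I/R over sham was -0.05 (SE 0.12), and its 95% interval of -0.32 to 0.22 corresponds to a level in I/R hearts of 0.801 to 1.17 times that in sham hearts (limma, adjusted p = 0.893 over 409 miRNAs). These bounds hold for the deposited totals: the log2 interval was -0.42 to 0.12 with median-ratio scaling and -0.56 to 0.14 with quantile normalization. By this test 0 of the 409 miRNAs were called (0%), and 30 (7.33%, 29 higher and 1 lower) had an unadjusted p under 0.05 in limma; among the count models, edgeR made 0 calls and had 26 miRNAs under that unadjusted p, while DESeq2 made 2 calls (miR-5103, miR-6240). Levels did not overlap between the groups for 15.2% of the 409, and miR-210-3p was not among them.

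The spread of miR-210-3p among the hearts of a group came to a coefficient of variation of 6.22% in the sham and 7.49% in the I/R group, where counting alone at the mean depth of reads gives 3.59% and 3.79%. Its standard error was low for this series: 72 of 409 miRNAs (17.6%) had a smaller one. The size of its log2 change was also small, with 66 of 409 (16.1%) closer to 0.

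With the deposited totals, the direction of the small difference rested on 1 heart. Without I/R replicate 3, the lowest library, the log2 fold change of miR-210-3p was 0.0012 (limma adjusted p = 0.996), and the median of all miRNAs was 0.06. Without each of the other 5 libraries in turn the value for miR-210-3p was -0.10 to -0.01. No library was left out under the other scalings. Between libraries of the same replicate number, I/R was above sham by 2.43 RPM for number 1, below by 0.544 RPM for number 2 and below by 10.7 RPM for number 3. The pairs did not share a direction, but the 95% Poisson intervals for counting error overlapped within every pair, so the signs are uncertain. For number 3 these intervals were 84.3 to 97.6 RPM in sham and 73.9 to 86.5 RPM after I/R. With the replicate number as a block the test called 4 of 409 miRNAs (0.978%), which were miR-5103 and, named only once their values were known, miR-6240, miR-3963 and miR-3968. miR-210-3p was not called (blocked limma adjusted p = 0.885).

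Against the other miRNAs, miR-210-3p stood below the middle. The median log2 fold change of all 409 was 0.10, so that miR-210-3p lay 0.15 below it; 287 miRNAs were above 0 and 122 below. Scaling moved both together: with median ratios the value for miR-210-3p was -0.15 and the median of all 0.01, under quantile normalization they were -0.21 and -0.01, after leaving the 10 most abundant miRNAs out of the totals -0.12 and 0.04, and in edgeR with TMM scaling -0.16 and -0.01. Quantile normalization and TMM shifted the median of all miRNAs by -0.11 each. The distance of miR-210-3p below the median was 0.15 to 0.20 under these scalings, and its adjusted p was 0.779 to 0.846.

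**Figure D2:**
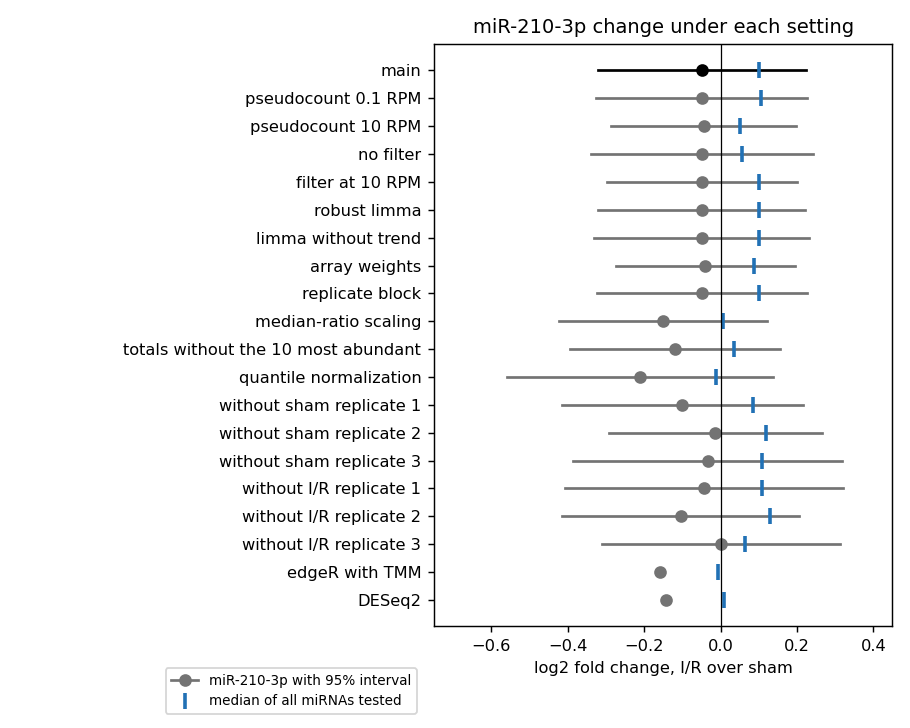
Log2 fold change of miR-210-3p, I/R over sham, on the horizontal axis for each setting on the vertical axis (dots, with 95% intervals where limma gives them), beside the median of all miRNAs tested (blue ticks). The dots run from -0.21 to 0.0012, the intervals shown all contain 0, and the ticks move left with the dots under the scalings.

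The 2 miRNAs on each side of it in mean level are given for scale. Just above miR-210-3p, at 87.5 RPM over all libraries, stood miR-744-5p at 91.1 RPM and miR-378b at 89.7 RPM, and just below it miR-676-3p at 85.9 RPM and miR-5103 at 85.2 RPM. The log2 fold changes were 0.10 for miR-744-5p (SE 0.17), 0.17 for miR-378b (SE 0.12) and 0.18 for miR-676-3p (SE 0.14), with limma adjusted p of 0.847, 0.661 and 0.678. The sign for miR-744-5p turned under median-ratio scaling, in both count models and without sham replicate 3. miR-5103, from 55.0, 30.9 and 49.4 RPM in sham to 134, 77.9 and 164 RPM in I/R replicates 1 to 3, had separate groups and a log2 fold change of 1.43 (SE 0.29, limma adjusted p = 0.370). It was called with the replicate number as a block (limma adjusted p = 3.3e-05), without a filter (limma adjusted p = 0.0433) and in DESeq2 (adjusted p = 0.0014). Its SE of 0.29 without the block was above the 0.12 of miR-210-3p at nearly the same level.

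miR-210-5p, the passenger strand, was at or near the limit of detection. Sham replicates 1 to 3 gave 0, 2 and 3 reads of it, and I/R replicates 1 to 3 gave 0, 4 and 0. These counts correspond to 0, 0.226 and 0.370 RPM for the sham and 0, 0.489 and 0 RPM for the I/R libraries. A count of 0 allows up to 3 reads, which is 0.326 RPM in sham replicate 1, 0.366 RPM in I/R replicate 1 and 0.381 RPM in I/R replicate 3. The library with the most reads and 2 of the 3 libraries without any belong to the I/R group, so the groups overlap. The sham mean was 0.199 ± 0.187 RPM and the I/R mean 0.163 ± 0.282 RPM (SD, n = 3 each), and the log2 levels differed by -0.06 (two-sided exact permutation p = 1, where 0.1 is the smallest that 3 against 3 hearts allow). The size of that difference was set by the pseudocount of 1 RPM, and with 0.1 RPM it was -0.46 (exact permutation p = 1). At this depth a difference in miR-210-5p was not detectable.

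The arms of the miR-210 hairpin were far from equal in every heart. miR-210-5p made up 0, 0.242% and 0.407% of the reads of both arms in sham replicates 1 to 3, with 95% Wilson intervals of 0 to 0.502%, 0.0663% to 0.876% and 0.138% to 1.19%. In I/R replicates 1 to 3 it made up 0, 0.524% and 0, with intervals of 0 to 0.547%, 0.204% to 1.34% and 0 to 0.606%. The intervals overlap in all 6 libraries. Over all hearts the share was 9 of 4418 reads, 0.204% (95% Wilson interval 0.107% to 0.387%), with 5 of 2327 reads in sham and 4 of 2091 reads in I/R hearts. The intervals cover counting error only.

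Arm balance did not differ detectably between the groups. For miR-210-5p the mean share was 0.216 ± 0.204% among sham and 0.175 ± 0.303% among I/R hearts (SD, n = 3 each), a difference of -0.0413 percentage points (two-sided exact permutation p = 1). The log2 ratio of 5p to 3p differed by -0.0091 (two-sided exact permutation p = 1), by -0.41 with a pseudocount of 0.1 RPM (exact permutation p = 0.9) and by 0.039 with 10 RPM (exact permutation p = 0.5). Among the 94 precursors with both arms kept, which do not include miR-210, limma called 0 (0%), and 6 had an unadjusted p under 0.05. The sum of both arms averaged 89.1 ± 5.69 RPM over the sham and 86.2 ± 6.70 RPM over the I/R hearts (SD, n = 3 each, two-sided exact permutation p = 0.6), a difference of -2.99 RPM that became 0.0864 RPM without I/R replicate 3. Sums of both arms are nearly the 3p arm alone, so this is no separate evidence.

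Minor arms as scarce as miR-210-5p were found for other hairpins too. In 137 precursors with both arms listed and at least 10 RPM together, the minor arm held a median of 1.29% of the reads, and in 38 of them (27.7%) it held less than in miR-210. In 35 precursors within a factor of 2 of the level of miR-210, that one included, the median was also 1.29%, and 9 had a lower share. The 3p arm was the major one in 63 of the 137, miR-210 among them, and the 5p arm in 74. Some of the 137 had nearly mirrored counts. miR-486a had 75664 5p and 85060 3p reads, and miR-486b had 85484 5p and 75704 3p reads. Whether such pairs count the same reads was not tested, so the 137 may not all be independent.

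**Figure D3:**
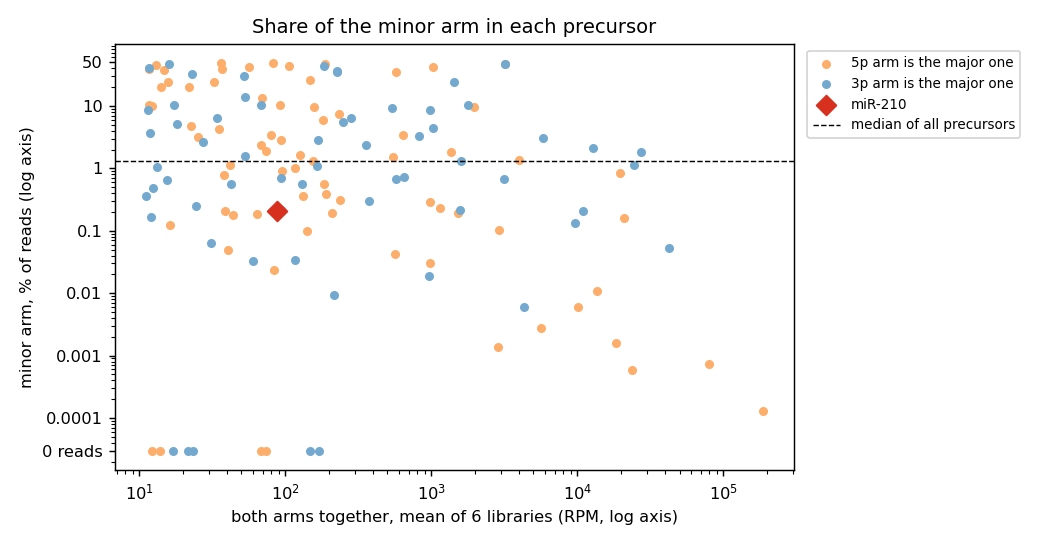
Share of the minor arm in the reads of both arms (vertical log axis, percent, with precursors that had 0 minor-arm reads on the lowest line) against the level of both arms (horizontal log axis, RPM), 1 point for each of 137 precursors, coloured by which arm is the major one. miR-210 (diamond), at 0.204%, lies below the median of 1.29% and above 38 other precursors.

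Other miRNAs of the hypoxia pathway were counted from 2 lists. The hypoxia-raised list held 14 miRNAs described as increasing in cultured cells under low oxygen, and all 14 were kept. Of these 0 were called in limma in either direction (0% over all 409), and 0 with the replicate number as a block (0.978% over all 409). At an unadjusted p under 0.05 there was 1 higher and 0 lower, beside 7.33% over all 409. Their log2 fold changes ran from -0.11 to 0.23 with a median of 0.08, against 0.10 over all 409. The median turned below 0 with median ratios (-0.02), quantile normalization (-0.06), edgeR (-0.03) and DESeq2 (-0.02), and it was 0.18 without sham replicate 2. The levels of 2 of the 14 did not overlap between the groups (14.3%), near the 15.2% over all miRNAs.

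The members of that list with the smallest p were 4 miRNAs of high or middle abundance. miR-27a-3p, from a cluster with miR-23a and miR-24, had 4912, 5385 and 5422 RPM in sham and 5765, 5728 and 6461 RPM in I/R replicates 1 to 3. Its lowest I/R library lay above its highest sham library, and its log2 fold change was 0.19 (SE 0.08, limma adjusted p = 0.598). Its relative miR-27b-3p had 8888, 9285 and 9383 RPM in sham and 10134, 9810 and 10500 RPM in I/R replicates, also without overlap (log2 fold change 0.14, SE 0.07, limma adjusted p = 0.598). miR-21a-5p, which many stresses raise in heart and fibroblasts, and miR-103-3p, a regulator of metabolism and of Dicer, overlapped between the groups, with log2 fold changes of 0.23 (SE 0.11) and 0.19 (SE 0.11) and limma adjusted p of 0.598 and 0.628. Other scalings lowered them: with quantile normalization they were 0.093 for miR-27a-3p, 0.015 for miR-27b-3p, 0.098 for miR-21a-5p and 0.0076 for miR-103-3p, and in edgeR 0.076, 0.029, 0.12 and 0.075. With the deposited totals all 4 values lay above that of miR-210-3p, but the 4 were picked by their p in these same data. Of all 14 on the list, 9 had a positive and 5 a negative log2 fold change. The differences between miRNAs were not tested.

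The HIF-side list held 8 miRNAs reported to act on HIF or its regulators, of which 4 were kept and 0 called in limma, with 0 at an unadjusted p under 0.05 and 0 whose groups did not overlap. Over all 409 these shares were 0%, 7.33% and 15.2%, and 4 members are too few for a count of 0 to be read against them. Their median log2 fold change was 0.13, and -0.01 with quantile normalization. miR-199a-5p, which represses the HIF alpha subunit in heart muscle cells, averaged 172 ± 30.0 RPM over the sham and 197 ± 17.7 RPM over the I/R hearts (SD, n = 3 each, log2 fold change 0.20, SE 0.15, limma adjusted p = 0.678). miR-17-5p and miR-20a-5p, from the miR-17/92 cluster, had log2 fold changes of 0.13 and 0.12, and miR-155-5p, a miRNA of activated leukocytes, had -0.11, with limma adjusted p of 0.798, 0.791 and 0.806. The sign for miR-20a-5p turned with quantile normalization and that for miR-155-5p without sham replicate 2. miR-18a-5p, miR-20b-5p, miR-138-5p and miR-429-3p did not pass the filter.

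**Figure D4:**
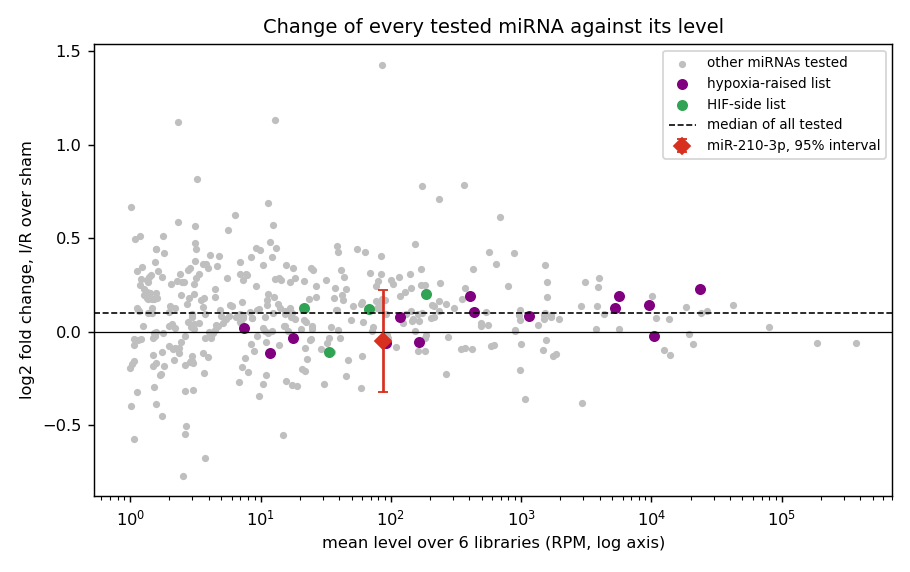
Log2 fold change of I/R over sham (vertical axis) against mean level over the 6 libraries (horizontal log axis, RPM) for the 409 miRNAs tested, with miR-210-3p and its 95% interval (diamond), the 14 hypoxia-raised and the 4 kept HIF-side miRNAs, and the median of all miRNAs (dashed line). miR-210-3p lies at -0.05, below the dashed line at 0.10, and the 18 listed miRNAs lie between -0.11 and 0.23.

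The miRNAs whose levels followed miR-210-3p most closely over the 6 libraries mostly shared its high values in the hearts numbered 2. By Pearson's r of log2(RPM + 1), given as a description over 6 libraries, 3 per group, they were miR-30b-5p (0.91), miR-211-5p (0.91), miR-490-3p (0.90), miR-29a-5p (0.89) and miR-30a-5p (0.88). In each group number 2 was the highest for all of these but miR-30a-5p, which among sham hearts was highest in number 3. miR-210-3p was itself highest in number 2 of each group, so the choice by r favours this pattern. miR-490-3p, at nearly the same level as miR-210-3p, had 86.3, 104 and 91.9 RPM in sham and 94.9, 101 and 82.7 RPM in I/R replicates 1 to 3. miR-30b-5p had 56.5, 77.5 and 60.4 RPM in sham and 51.0, 68.0 and 40.6 RPM in I/R replicates, again highest in number 2 of each group and lowest in I/R replicate 3. miR-211-5p and miR-29a-5p, at 2.99 and 3.40 RPM, rest on few reads.

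With the deposited totals the opposite pattern was seen for more miRNAs, with a bound on r set after the values were seen. Of 408 miRNAs 12 (2.94%) had r above 0.8 with miR-210-3p and 32 had r below -0.8. These counts were not made under the other scalings. The lowest r was that of miR-1198-5p (-0.96), with 138, 114 and 128 RPM in sham and 136, 117 and 156 RPM in I/R replicates 1 to 3, lowest in number 2 of each group. That value depended on the scaling: it was -0.58 with median ratios and -0.36 with quantile normalization, while r for miR-30b-5p was 0.96 and 0.98. Under those 2 scalings r was 0.68 and 0.73 for miR-211-5p and 0.81 and 0.83 for miR-29a-5p. For miR-30a-5p it was 0.97 and 0.77, and for miR-490-3p 0.93 and 0.93.

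**Figure D5:**
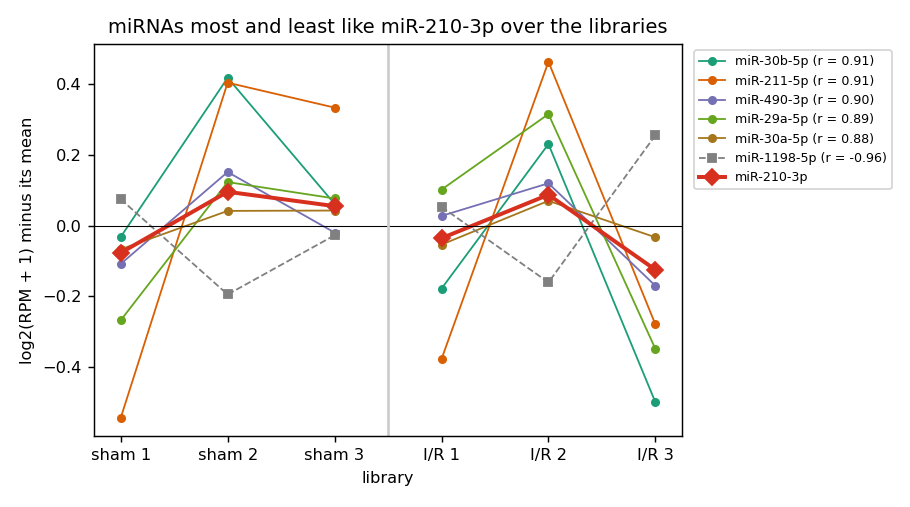
Log2(RPM + 1) of miR-210-3p and of the 5 most alike and the least alike miRNA, each minus its own mean over the 6 libraries (vertical axis), by library (horizontal axis); lines only join the points of 1 miRNA within a group. miR-210-3p (diamonds) is highest in number 2 of each group and lowest in I/R replicate 3, and miR-1198-5p (squares) mirrors it with r of -0.96.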

How the data were processed

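Small RNA was measured in 3 sham and 3 I/R hearts, grouped by the treatment label and numbered by the titles. The deposited table gives signal per mature miRNA, and its name calls the values FPKM. The submitters' processing notes name bcl2fastq 2.19.1.403, fastp 0.23.0 and mm10. For the aligner, the miRNA annotation, strandedness and multiply mapped reads, each setting was not given in the sources used here. Some names had nearly equal levels, such as miR-126a-5p and miR-126b-3p at 491 and 488 RPM over the 6 libraries. The miR-1b hairpin averaged 186348 RPM, from 9400897 5p and 12 3p reads. Any of its reads also counted under another name would enlarge every library total. Whether 1 read counts under more than 1 name was not tested. The titles say miRNA-seq, but the kits in the labels' protocol are for poly(A) mRNA. What this means for short RNAs was not tested.

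The deposited signal columns sum to 1 total, and every value is a whole multiple of its column's smallest value. Division by that value gave whole numbers, called reads here, for 100% of values (tolerance 0.01 reads). A read placed under more than 1 name would count under each and in the total. RPM are these reads per 1000000. The design expected FPKM with a length per miRNA, and its test was kept. limma 3.58.1 (R 4.3.3) with a mean-variance trend ran on log2(RPM + 1) without other scaling, which understates changes of low miRNAs, over the 409 names that averaged 1 RPM or more and were above 0 in 3 or more libraries. Two-sided p-values were adjusted by Benjamini-Hochberg, and the threshold was 0.05. miR-210-5p, removed by the filter, and the arm values were given exact permutation tests. The test code was checked on simulated counts. edgeR 4.0.16 and DESeq2 1.42.0 on the recovered reads were added after seeing the data. RNAfold is from ViennaRNA 2.7.2.

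The members, lists and alternatives were chosen with earlier results of these data known. Named were both arms, up to 4 list members with the smallest p, the 2 neighbours in level on each side, and the 5 most alike and the least alike miRNA by r.

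Deviations from group means correlated at 0.14, 0.28 and 0.16 between libraries of the same number and at -0.19 to 0.07 otherwise. From these data alone the numbers were used to pair the hearts in the block setting, while the main limma fit left them out. The calls made with the block rest on that choice. No label says that a number marks a shared day.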

Additional observations from a re-analysis of the deposited data

How the results depend on the processing

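miR-210-3p was not called under any of 19 alternatives, with log2 fold changes of -0.21 to 0.0012 and adjusted p of 0.727 to 0.996; its sign turned only without I/R replicate 3. With each library left out in turn the range was -0.10 to 0.0012 for miR-210-3p, -0.25 to 0.044 for miR-210-5p, -0.14 to 0.081 for the log2 arm ratio, -6.56 to 0.0864 RPM for both arms, -0.216 to 0.0540 percentage points for the 5p share, -0.0075 to 0.28 for miR-744-5p, -0.18 to 0.023 for miR-155-5p, and 0 to 1 for the number of called miRNAs. The 1 call, without sham replicate 2, was miR-27a-5p. With a pseudocount of 0.1 RPM miR-210-5p was at -0.46 and the arm ratio at -0.41, and with 10 RPM the arm ratio was 0.039. miR-20a-5p was at -0.081 with quantile normalization, and miR-744-5p at -0.0045 with median ratios, -0.045 in edgeR and -0.029 in DESeq2. Called miRNAs numbered 1 without a filter (miR-5103), 2 in DESeq2 and 4 with the replicate number as a block. The block changed no call for miR-210, where the 3p value stayed at -0.05. The exact test of 3 paired differences in the sum of both arms gave p = 0.75, and with 3 pairs that test cannot reach 0.05. The causes were not tested. Stricter filters, other limma fits and quantile normalization give no value for miR-210-5p or its arm ratio, since the filter removes that arm. Depth limits that arm, with 9 reads in all.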
